A study of Rattus norvegicus with 45 samples.

Results

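Of the 9 genes Myod1, Myog, Myf5, Myf6, Pax7, Mef2c, Vcam1, Vim and Des, which stand for the myogenic transcription factors and for genes of satellite cells and regenerating muscle, 7 had a probe set that the platform annotation assigned to the gene's symbol alone. These 7 genes were read by 8 of the 31042 probe sets of the array, Mef2c by 2 and the others by 1 each, and all 8 passed the filter on low values. Myf5 and Pax7 were not analysed here, because the probe annotation used named no probe set for them. The arrays carried total RNA of the gastrocnemius (30 arrays) or the soleus (15 arrays) of female Sprague Dawley rats, in 12 groups of 3 or 4 biological replicates. All animals were dosed for 14 days, and the labels give no difference in genotype.

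In the gastrocnemius, a mostly fast-twitch muscle, exercised and unexercised rats received vehicle or cerivastatin, a statin, at 0.1, 0.5 or 1.0 mg/kg/day. In the soleus, a slow-twitch muscle, exercised and unexercised rats received 1.0 mg/kg/day or vehicle. The vehicle was methylcellulose where the labels name it, and exercise was treadmill running for 20 min a day at 20 m/min on 5 days a week. Soleus samples not labelled as exercised were taken as unexercised. The design asked for the effect of the drug, the effect of exercise combined with it, and the difference between muscles in their sensitivity to statins.

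Satellite cells are the stem cells of skeletal muscle and carry Pax7. On injury they divide and switch on the myogenic regulatory factors, a family of basic helix-loop-helix proteins that bind E-boxes in muscle genes. Myf5 and Myod1 commit cells to the muscle lineage, Myog drives their terminal differentiation, and Myf6 (also called MRF4) is the member most abundant in mature fibres. Mef2c, a MADS-box factor, works together with them and maintains genes of the contractile apparatus. Vcam1, an adhesion molecule that binds α4 integrins, is carried by satellite cells and by inflamed endothelium. Vim and Des encode the intermediate filaments vimentin, which is found in mesenchymal cells, leukocytes and young myotubes, and desmin, which ties the Z-discs of muscle fibres together.

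Signals are the authors' linear MAS5 values. The mean of each array, after trimming 2% of its values at each end, was at about the same level (600.2 to 600.3). Differences are given on the log2(signal + 12.4) scale with their standard error, and adjusted p-values are limma's, adjusted by the Benjamini-Hochberg method over all 21729 tested probe sets of a comparison, with a threshold of 0.05. A gene was called higher or lower only below that threshold. Signals of different genes come from different probes and were not set against each other.

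In exercised vehicle rats the muscle labels held against fibre markers, since 7 of 8 slow-fibre genes were higher and 7 of 9 fast-fibre genes lower in soleus. In unexercised vehicle rats 6 of 9 fast-fibre genes were lower in soleus, but only 1 of 8 slow-fibre genes passed as higher. There the slow-fibre mean per array ran from 13.27 to 15.11 in gastrocnemius and from 15.18 to 15.83 in soleus, so the nearest arrays almost met. In 3 arrays the mean of 7 fat genes, a list chosen after seeing the data, was above 12 on the log2 scale: replicate 3 of the unexercised gastrocnemius at 0.1 mg/kg/day (13.12), replicate 1 of the exercised soleus at 1.0 mg/kg/day (12.90) and replicate 3 of the unexercised vehicle soleus (12.54). The first of these also had the lowest ratio of 5' to 3' signal for β-actin (0.116, against up to 0.707 elsewhere) and Gapdh (0.475, against up to 0.888). Its Des signal was 11001 and its Myf6 signal 1069, the lowest of all 45 arrays for both genes. The effect of leaving these arrays out is given beside the results that rest on them.

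At 1.0 mg/kg/day in exercised gastrocnemius, 5 of the 7 measured genes changed against exercised vehicle: Vcam1 and Vim were higher, and Mef2c, Myf6 and Des were lower. Myog and Myod1 did not pass the threshold. The comparison called 43.4% of all tested probe sets, 23% higher and 20.4% lower, so that a share of this size among the 7 genes is not particular to them. In 4 of the 7 genes no treated array overlapped a vehicle array, a pattern that 42.3% of all tested probe sets showed. In whole-muscle RNA, fewer cells of a type and less RNA per cell cannot be told apart.

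The promoters of the called genes that the RefSeq promoter table holds (build GRCr8, 250 bases before to 50 after the gene's start) are shown to let the regulatory sequence be read beside the values. The windows are Vcam1 at chr2:206742734-206743033 (minus strand), Vim at chr17:81577011-81577310 (plus strand), Myf6 at chr7:44701264-44701563 (minus strand) and Des at chr9:84299376-84299675 (plus strand). Capitals mark matches, on either strand, to the E-box CANNTG, to the MEF2-like pattern CTANNNNTA or to the NF-kB consensus.
Vcam1: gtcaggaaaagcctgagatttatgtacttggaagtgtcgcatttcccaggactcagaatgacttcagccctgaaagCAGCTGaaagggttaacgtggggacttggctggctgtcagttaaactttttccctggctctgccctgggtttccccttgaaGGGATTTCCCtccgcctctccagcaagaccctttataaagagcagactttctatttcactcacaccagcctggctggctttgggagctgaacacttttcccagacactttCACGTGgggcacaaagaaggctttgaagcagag
Vim: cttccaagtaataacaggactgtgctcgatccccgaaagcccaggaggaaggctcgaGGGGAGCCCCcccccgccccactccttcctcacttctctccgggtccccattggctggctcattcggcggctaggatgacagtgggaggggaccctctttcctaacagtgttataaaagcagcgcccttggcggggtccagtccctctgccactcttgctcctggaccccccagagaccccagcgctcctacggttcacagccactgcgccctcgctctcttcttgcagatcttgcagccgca
Myf6: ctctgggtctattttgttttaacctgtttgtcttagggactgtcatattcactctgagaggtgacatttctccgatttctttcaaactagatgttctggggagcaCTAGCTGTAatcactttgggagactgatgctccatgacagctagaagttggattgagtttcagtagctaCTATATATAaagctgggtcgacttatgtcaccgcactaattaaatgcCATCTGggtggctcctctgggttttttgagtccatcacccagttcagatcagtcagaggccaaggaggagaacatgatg
Des: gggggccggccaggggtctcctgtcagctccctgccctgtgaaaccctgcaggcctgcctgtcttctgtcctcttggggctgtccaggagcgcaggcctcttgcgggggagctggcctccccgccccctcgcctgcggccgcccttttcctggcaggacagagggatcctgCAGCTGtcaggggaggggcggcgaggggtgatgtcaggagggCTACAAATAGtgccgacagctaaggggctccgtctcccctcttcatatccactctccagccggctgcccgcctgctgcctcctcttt
Among 33469 rat promoter windows of the same length, 72.1% held an E-box, 22.4% the MEF2-like pattern and 4.18% the NF-kB consensus. Vcam1 and Vim each held 1 NF-kB match, at -93 to -84 in Vcam1 and at -193 to -184 in Vim, counted from the start. Myf6 held MEF2-like matches at -145 to -137 and -76 to -68 and an E-box at -29 to -24. Des held an E-box at -79 to -74 and MEF2-like matches at -37 to -29 and -36 to -28, which overlap. Vcam1 also held E-boxes at -174 to -169 and 18 to 23, and Vim held none. These are letter matches in 1 window per gene, not measured binding sites.

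Vcam1 showed the biggest shift of the 7 genes in exercised gastrocnemius. Its signal was 1063, 2467, 1400.5 and 2998 in the 4 arrays at 1.0 mg/kg/day, against 126, 141, 162 and 107 in the 4 vehicle arrays. All treated arrays were therefore several times above every vehicle array, and replicates 2 and 4 were the highest. The fold change was 12.7 (log2 3.66 ± 0.47, adjusted p = 6.67e-06).

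Vim had signals of 33784, 34778, 45134 and 42201 at 1.0 mg/kg/day, against 6838, 8367, 7484 and 7173 in vehicle. The treated arrays lay close together and clear of vehicle, 5.19-fold higher (log2 2.38 ± 0.43, adjusted p = 0.00012). Des, the other intermediate filament gene and a marker of muscle fibres, had 35798, 23682, 34362 and 24895 at 1.0 mg/kg/day, against 47158, 48338, 46993 and 49931 in vehicle. Its treated arrays were all lower than its vehicle arrays, with replicates 2 and 4 the lowest (log2 -0.72 ± 0.29, adjusted p = 0.0438). The Des call was lost under several alternatives. It did not hold with quantile normalization (-0.08, adjusted p = 0.823), with no filter on low values (adjusted p = 0.0718), with a replicate block (adjusted p = 0.0521), or without treated replicate 2 or 4 or any single vehicle array (adjusted p = 0.068 to 0.126).

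Mef2c was read by 2 probe sets, which differed by a median of 0.25 on the log2 scale over the 45 arrays. The one with the higher mean gave 7498, 1668, 8342 and 2260.4 at 1.0 mg/kg/day, against 21903, 16745, 24064 and 19826 in vehicle. The other gave 7381, 2388, 11914 and 3209 at 1.0 mg/kg/day, against 23139.9, 18622, 22289.5 and 15839.5 in vehicle. By either probe set every treated array was below every vehicle array, and replicates 2 and 4 were far below replicates 1 and 3. The fall was 5.20-fold by the first (log2 -2.38 ± 0.44, adjusted p = 0.000162) and 3.87-fold by the second (log2 -1.95 ± 0.41, adjusted p = 0.000512).

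Myf6, the myogenic factor of mature fibres, had 11737, 3039, 4537 and 2026 at 1.0 mg/kg/day, against 14005.5, 11221.5, 8583 and 13327 in vehicle. Replicate 1 stayed within the range of vehicle, and the other 3 treated arrays were below it. Myf6 fell by 1.44 ± 0.48 on the log2 scale (adjusted p = 0.0165), a call that was lost without treated replicate 2 (adjusted p = 0.0573) or replicate 4 (adjusted p = 0.0891). Myog, the differentiation factor, had 4169.9, 1626, 3986 and 2447 at 1.0 mg/kg/day, against 1636, 2400.1, 1434 and 1127 in vehicle. Of its treated arrays 3 lay above all vehicle arrays and replicate 2 lay among them, giving a difference of 0.84 ± 0.48 (95% interval -0.15 to 1.83, adjusted p = 0.165). Myod1, the lineage factor, had 1011, 1574, 1832 and 2617 at 1.0 mg/kg/day, against 2012, 1210.5, 2455 and 2727 in vehicle. The groups overlapped over most of their range (log2 -0.27 ± 0.51, 95% interval -1.32 to 0.78, adjusted p = 0.698).

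**Figure D1:**
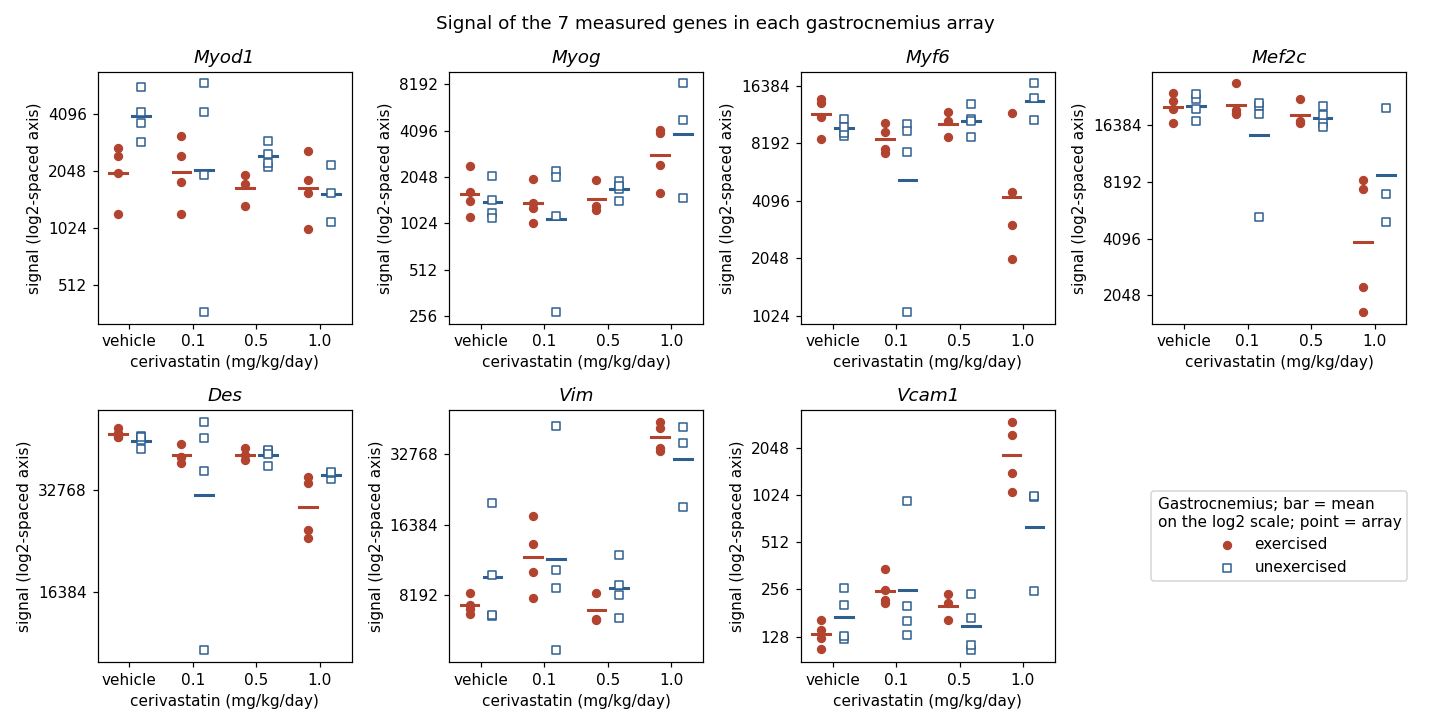
Signal of the 7 measured genes in each gastrocnemius array (log2-spaced vertical axis) against the cerivastatin dose in mg/kg/day, with filled circles for exercised and open squares for unexercised rats, and bars at the mean on the log2 scale. At 1.0 mg/kg/day the exercised arrays of Vcam1 and Vim lie above, and those of Mef2c and Des below, every exercised vehicle array, while 1 unexercised array at 0.1 mg/kg/day (replicate 3) lies far from its group in most panels.

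The 4 treated arrays of exercised gastrocnemius fell into a pattern shared by several genes. Relative to the mean of exercised vehicle, replicates 2 and 4 had Mef2c shifts of -3.61 and -3.17 and Myf6 shifts of -1.93 and -2.51 on the log2 scale. In replicates 1 and 3 the Mef2c shifts were -1.45 and -1.29 and the Myf6 shifts 0.02 and -1.35. Myog was likewise lower in replicates 2 and 4, with shifts of 0.03 and 0.62, than the 1.39 and 1.32 of replicates 1 and 3, all of them at or above the vehicle mean. Vcam1 was highest where Mef2c was lowest, at 4.10 and 4.38 for replicates 2 and 4, while replicates 1 and 3 stood at 2.89 and 3.29. Vim differed less among the 4 arrays, with shifts between 2.18 and 2.60.

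Several marker lists moved with these values. All 10 tested macrophage genes, of a list with Cd68, Csf1r and Ptprc, were higher (median log2 difference 4.51), and the summed signal of the 11 measured genes was 60162 to 136028 at 1.0 mg/kg/day, against 5043 to 6401 in vehicle. All 6 tested cell-cycle genes were higher (median 3.72), as were 7 of 9 genes of a fibroblast list with Pdgfra (median 1.64). Of an endothelial list 2 of 9 genes were higher (median 0.72), and Pecam1 and Kdr did not pass. Over all tested probe sets 23% were called higher, so the endothelial share is not particular to that list. All 6 general muscle fibre genes, among them Ckm, Acta1 and Ttn, and 7 of 9 fast-fibre genes were lower (medians -1.98 and -1.67), against a median of -0.01 over all tested probe sets. Replicates 2 and 4 had mean macrophage shifts of 4.71 and 5.04, above the 3.49 and 4.20 of replicates 1 and 3. Their mean fibre gene shifts were -3.03 and -2.65, below the -0.89 and -0.84 of replicates 1 and 3. Slow-fibre genes, of which 0 of 8 were called, split the same way, with mean shifts of -3.38 and -1.33 in replicates 2 and 4, and of 2.63 and 2.33 in the others. Their summed signal ran from 4691.5 to 189209 at 1.0 mg/kg/day, against 3653 to 379729 in vehicle, and the part of fibre content was not tested. No macrophage, endothelial, fibroblast or fibre marker had a signal of 0 in any array. Macrophages, endothelium and fibroblasts can themselves carry Vim, and inflamed endothelium Vcam1, and their part in the differences was not tested.

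**Figure D2:**
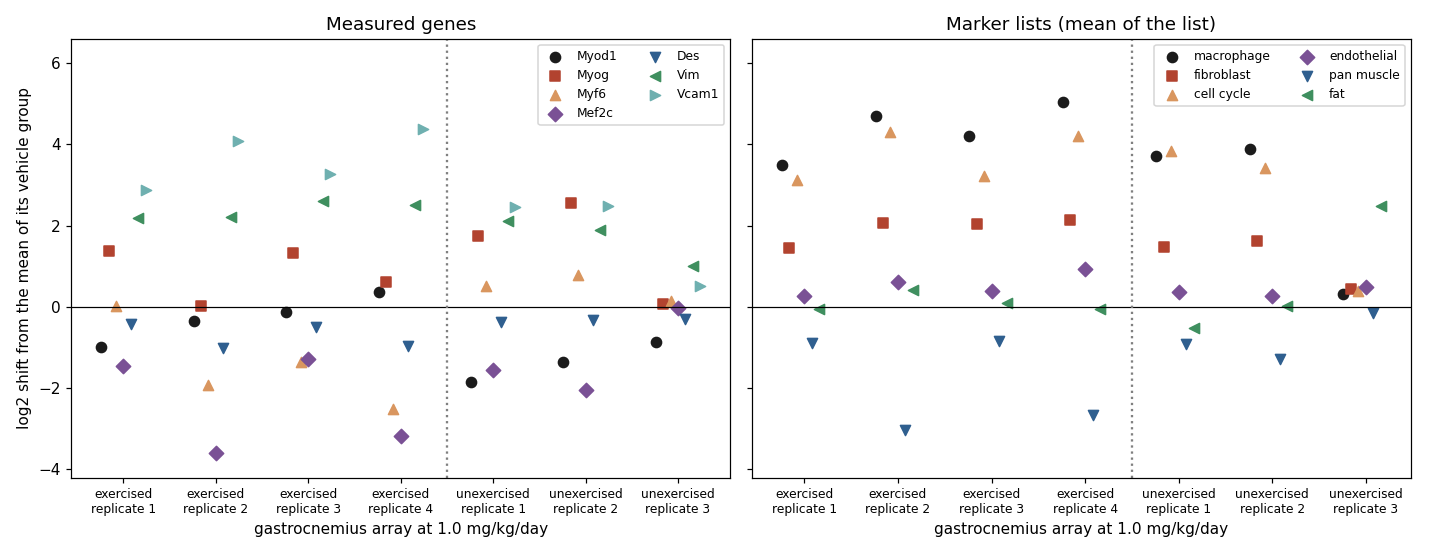
Shift of each gastrocnemius array at 1.0 mg/kg/day from the mean of its vehicle group (log2 scale), for the 7 measured genes (left) and for the means of 6 marker lists (right), with exercised arrays left of the dotted line and unexercised arrays right of it. Exercised replicates 2 and 4 have the lowest Mef2c and fibre marker values, and unexercised replicate 3 sits near 0 for Myog, Mef2c and the macrophage list.

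In unexercised gastrocnemius at 1.0 mg/kg/day, Vcam1 and Vim were higher than in unexercised vehicle and none of the other 5 genes passed the threshold. The comparison called 9.5% of all tested probe sets, 5.7% higher and 3.81% lower. Vcam1 had 993, 1013 and 251 at 1.0 mg/kg/day, against 259.5, 124, 129 and 202 in vehicle (log2 1.82 ± 0.50, adjusted p = 0.0284). Vim had 42697, 36434 and 19561 at 1.0 mg/kg/day, against 6658.5, 10007, 6749 and 20335 in vehicle (log2 1.67 ± 0.46, adjusted p = 0.0289). For both genes treated replicates 1 and 2 were above all vehicle arrays and replicate 3 was within their range.

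The same split between treated arrays held for Myog and Mef2c. Myog had 4805, 8331.5 and 1494.5 at 1.0 mg/kg/day, against 2069, 1203.5, 1448 and 1112 in vehicle (log2 1.46 ± 0.52, adjusted p = 0.0712). Mef2c had 7042, 5000.2 and 20232 at 1.0 mg/kg/day, against 22580.1, 19826, 23849 and 17185.5 in vehicle (log2 -1.21 ± 0.48, adjusted p = 0.0994), and its other probe set differed by -0.88 (adjusted p = 0.196). In replicates 1 and 2, then, Myog was above and Mef2c below every vehicle value, while replicate 3 was at the level of vehicle for both. Myod1 did not follow this split, with 1098, 1560.5 and 2201 at 1.0 mg/kg/day, against 2925, 4189.7, 5666 and 3673 in vehicle. All its treated arrays were below all vehicle arrays, where 15% of all tested probe sets had groups free of overlap (log2 -1.35 ± 0.55, adjusted p = 0.11). Des did the same over a narrower span, with 35302, 36893 and 37135 at 1.0 mg/kg/day, against 43214, 47329, 46114.5 and 47107.5 in vehicle (log2 -0.33 ± 0.31, adjusted p = 0.515). Myf6 had 14036, 16855 and 10823 at 1.0 mg/kg/day, against 10989, 8973, 9311 and 9969 in vehicle (log2 0.48 ± 0.52, 95% interval -0.58 to 1.55, adjusted p = 0.581).

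Single arrays of these groups decided which genes were called. In treated replicate 3 the macrophage markers were shifted by 0.31 from vehicle, against 3.71 and 3.89 in replicates 1 and 2, and fat and myelin markers by 2.48 and 2.83. Without this array 4 genes were called: Vcam1 (2.47), Myog (2.15), Vim (2.01) and Mef2c (-1.80), with adjusted p from 0.00093 to 0.00819. Without replicate 1 or replicate 2 of the treated group, or vehicle replicate 2 or 3, none was called, and without vehicle replicate 1 only Vcam1 was. With only these 2 groups in the fit none was called either (adjusted p = 0.142 for both Vcam1 and Vim). When replicate 3 of the 0.1 mg/kg/day group, the array with high fat markers among the 30 fitted and in neither group compared, was left out of the shared estimate of the spread, the same fold changes gave 5 calls: Vim (adjusted p = 0.00267), Vcam1 (0.00396), Myod1 (0.0119), Myog (0.0144) and Mef2c (0.0401). Of the macrophage genes 9 of 10 tested were higher in the full comparison (median 2.75), with a summed signal of 9414 to 80395 at 1.0 mg/kg/day, against 3801 to 13397 in vehicle, and their part was not tested.

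Whether exercise altered the response to the high dose was tested directly. None of the 7 genes passed in the difference of the 2 drug effects, in which 0% of all probe sets were called and 1375 probe sets (6.33%) had an unadjusted p under 0.05. The differences furthest from 0, in log2 units, were -1.92 ± 0.70 for Myf6 and 1.84 ± 0.68 for Vcam1 (adjusted p = 0.705 for both). At the high dose 3 of the 4 exercised arrays of Myf6 read below all unexercised ones, with 11737, 3039, 4537 and 2026 in exercised rats, against 14036, 16855 and 10823 in unexercised rats (log2 -1.68 ± 0.52, adjusted p = 0.385). Vcam1 arrays did not overlap at this dose, with 1063 to 2998 in exercised rats, against 251 to 1013 in unexercised rats (log2 1.50 ± 0.50, adjusted p = 0.385), where 6.01% of all probe sets had groups free of overlap. That comparison called 0.0046% of all probe sets, and limma gave 2540 (11.7%) an unadjusted p under 0.05.

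At 0.1 and 0.5 mg/kg/day no measured gene passed against vehicle, exercised or not, and 0% of all probe sets were called in each of the 4 comparisons. At an unadjusted p under 0.05, limma gave 957 and 626 probe sets in exercised muscle (4.4% and 2.88%) and 885 and 593 in unexercised muscle (4.07% and 2.73%) for the 2 doses. In exercised muscle Vcam1 read 126, 141, 162 and 107 with vehicle, 344, 209, 252 and 218 at 0.1 mg/kg/day, and 209, 238 and 162 at 0.5 mg/kg/day. Its lower-dose arrays lay at or above the highest vehicle array, by 0.86 ± 0.47 and 0.56 ± 0.50 on the log2 scale (adjusted p = 1 for both). Des in the same muscle read 47158, 48338, 46993 and 49931 with vehicle, 39363, 41012, 41187 and 44771 at 0.1 mg/kg/day, and 40089, 43577 and 41531 at 0.5 mg/kg/day. All arrays at the lower doses were below all vehicle arrays, by -0.21 at both (adjusted p = 1). Groups that do not overlap were found for 4.72% and 4.97% of all probe sets in these 2 comparisons, which share their vehicle arrays.

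The other genes did not pass at the lower doses either, which does not show that they were unaltered. In exercised muscle the log2 differences of Myod1, Myog, Myf6, Mef2c and Vim ran from -0.43 (Myf6) to 0.68 (Vim) at 0.1 mg/kg/day and from -0.28 (Myod1) to -0.08 (Vim) at 0.5 mg/kg/day. In unexercised muscle at 0.5 mg/kg/day the 7 genes ran from -0.70 (Myod1) to 0.27 (Myog), and only the Des arrays lay wholly below vehicle (-0.14 ± 0.29), as 2.46% of all probe sets lay clear of it. At 0.1 mg/kg/day they ran from -0.95 (Myod1) to 0.53 (Vcam1), a group that holds replicate 3, the array described above. Without that array the range was -0.36 (Vim) to 0.29 (Myog), and Myog, Vcam1 and Vim changed sign.

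In the soleus the high dose called none of the 7 genes, with or without exercise, and 0% of all probe sets. At an unadjusted p under 0.05, limma gave 1156 probe sets (5.32%) in exercised and 593 (2.73%) in unexercised soleus. Vcam1 had the lowest p of the 7, with 1269, 583, 621 and 751 in exercised soleus at 1.0 mg/kg/day, against 279.8, 245, 694 and 614 in exercised vehicle soleus. The groups overlapped (log2 0.87 ± 0.37, unadjusted p = 0.0331, adjusted p = 0.908), and the difference was 0.63 without replicate 1, which has high fat markers. In unexercised soleus it had 404, 387 and 383 at 1.0 mg/kg/day, against 263, 229, 677.5 and 298 in vehicle (log2 0.22 ± 0.40, and 0.56 without vehicle replicate 3, which has high fat markers).

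Mef2c in exercised soleus had 7861, 17376, 16880.4 and 17713.5 at 1.0 mg/kg/day, against 15565, 13973, 14276 and 13614 in vehicle. Only replicate 1, one of the arrays with high fat markers, was below vehicle, and the difference was -0.01 ± 0.24 with it and 0.27 without the high-fat arrays. Myog in exercised soleus had 1141, 2714, 2420.3 and 3181 at 1.0 mg/kg/day, against 2297, 2326.5, 1974 and 2118 in vehicle (log2 0.02 ± 0.29, and 0.34 without replicate 1). The 95% interval of the drug effect in exercised soleus was -0.52 to 0.49 for Mef2c, -0.60 to 0.65 for Myog, -1.09 to 0.14 for Myf6 and -0.86 to 0.65 for Vim. Without the high-fat arrays the effects on Myf6 and Vim were -0.17 and -0.34. These intervals bound the effects and do not show that the soleus was unaffected.

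The drug effect itself differed between the muscles of exercised rats for 3 genes. In the test of soleus effect minus gastrocnemius effect, Mef2c was at 2.37 ± 0.56 (adjusted p = 0.0027), and 1.84 ± 0.55 by its other probe set (adjusted p = 0.0132). Vcam1 was at -2.79 ± 0.64 (adjusted p = 0.002) and Vim at -2.48 ± 0.60 (adjusted p = 0.00296). The fall of Mef2c and the rises of Vcam1 and Vim in gastrocnemius thus went beyond any change in soleus. From vehicle to 1.0 mg/kg/day, the exercised soleus mean went from 13.81 to 13.80 for Mef2c and from 14.57 to 14.46 for Vim. Of these 3 genes only Vcam1 had a higher mean with the drug there (8.74 and 9.61). The test between muscles called 25.3% of all probe sets, 11.6% upward and 13.7% downward. All 10 tested macrophage genes were also called, with a median of -3.73, and their part was not tested. Without the 3 high-fat arrays Mef2c was at 2.65, Vcam1 at -3.03 and Vim at -2.71, and Myf6 (1.27, adjusted p = 0.0139) and Des (0.60, adjusted p = 0.017) were called as well. In unexercised rats none of the 7 passed, 0.0092% of all probe sets were called, and limma gave 3929 (18.1%) an unadjusted p under 0.05. There, leaving out replicate 3 of the treated gastrocnemius brought 4 calls (Myog -2.29, Vcam1 -2.25, Vim -2.10 and Mef2c 1.73).

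**Figure D3:**
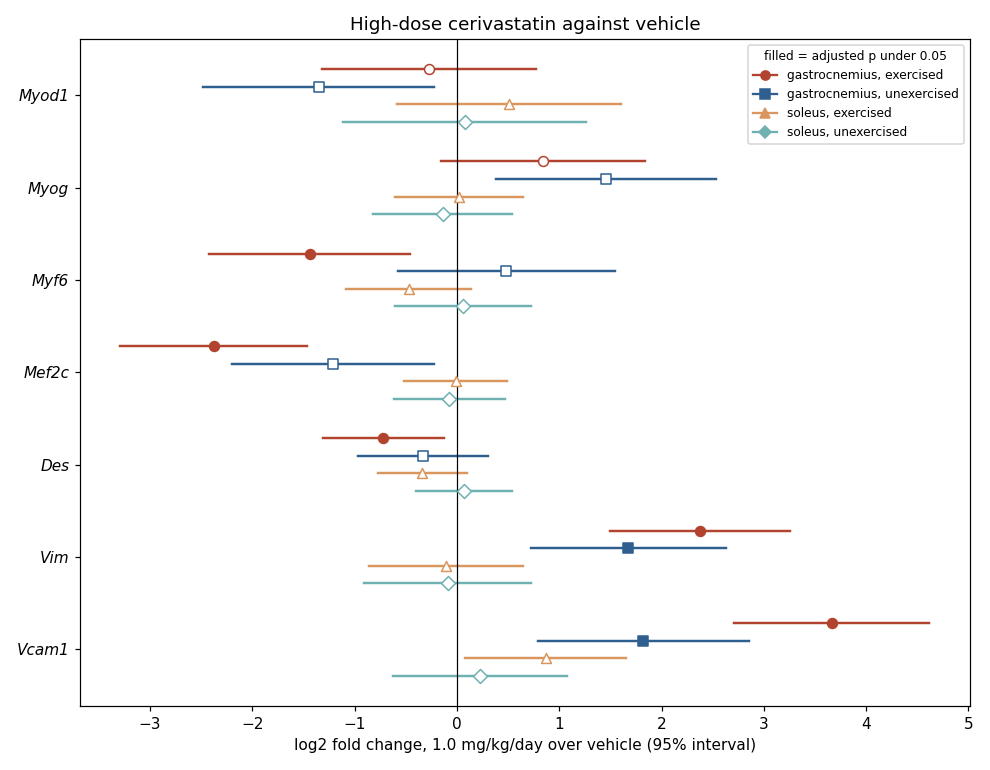
Log2 difference between 1.0 mg/kg/day and vehicle with its 95% interval for the 7 measured genes, in exercised and unexercised gastrocnemius and soleus, with filled symbols where the adjusted p was under 0.05. All filled symbols belong to gastrocnemius, 5 in exercised and 2 in unexercised rats, and the soleus intervals of 6 genes include 0 in both states.

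Exercise alone, in vehicle rats, called none of the 7 genes in either muscle and 0% of all probe sets, while limma gave 724 (3.33%) in gastrocnemius and 645 (2.97%) in soleus at an unadjusted p under 0.05. Myod1 stood out by its arrays. In gastrocnemius it had 2012, 1210.5, 2455 and 2727 in exercised rats, against 2925, 4189.7, 5666 and 3673 in unexercised rats. In soleus it had 157, 354, 358 and 277 in exercised rats, against 359, 1906, 501 and 483.5 in unexercised rats. In both muscles every exercised array was below every unexercised one, although in soleus the nearest values were almost equal. The differences were -0.99 ± 0.51 in gastrocnemius (unadjusted p = 0.0641, adjusted p = 1) and -1.19 ± 0.52 in soleus (unadjusted p = 0.035, adjusted p = 1; -1.31 without the high-fat arrays), and groups without overlap were found for 2.45% and 1.93% of all probe sets.

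Myod1 was lower in soleus than in gastrocnemius of vehicle rats, with or without running. In exercised rats it read 157 to 358 in soleus, against 1210.5 to 2727 in gastrocnemius, 7.08-fold lower (log2 -2.82 ± 0.54, adjusted p = 0.000488). In unexercised rats it read 359 to 1906 in soleus, against 2925 to 5666 in gastrocnemius, 6.14-fold lower (log2 -2.62 ± 0.54, adjusted p = 0.00256, and -2.50 without the high-fat arrays). The labels do not say whether both muscles came from the same animals, and the arrays were fitted as separate samples. No soleus array reached the lowest gastrocnemius array of its state. The highest soleus value, 1906 in unexercised replicate 2, came from the array with the highest fast-fibre marker mean of that group (15.16, against 12.19 to 14.19 in the other 3), and a role of fibre content was not tested.

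Vim and Vcam1 were higher in soleus of exercised vehicle rats. Vim read 16624, 15810.3, 34035 and 38606 in soleus, against 6838, 8367, 7484 and 7173 in gastrocnemius (log2 1.70 ± 0.42, adjusted p = 0.00583). Vcam1 read 279.8, 245, 694 and 614 in soleus, against 126, 141, 162 and 107 in gastrocnemius (log2 1.56 ± 0.45, adjusted p = 0.0174). For both genes all soleus arrays were above all gastrocnemius arrays, and soleus replicates 3 and 4 were higher than replicates 1 and 2. The Vcam1 call was lost without soleus replicate 3 (adjusted p = 0.0736) or 4 (adjusted p = 0.0695) or gastrocnemius replicate 4 (adjusted p = 0.0571). The fat marker mean ran from 8.69 to 11.55 in these soleus arrays, with the highest values in replicates 3 and 4, against 7.36 to 7.99 in gastrocnemius, and its part was not tested. With these 2 genes and Myod1, 3 of 7 were called and 4 of 7 did not overlap, where 13.2% of all probe sets were called (6.33% higher and 6.83% lower) and 22% did not overlap.

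In unexercised vehicle rats Myod1 was the only one of the 7 called, where 7.02% of all probe sets were called (3.26% higher and 3.76% lower in soleus) and 16.7% did not overlap. Vim read 16073, 18891, 36922 and 14775 in soleus, against 6658.5, 10007, 6749 and 20335 in gastrocnemius (log2 1.04 ± 0.42, adjusted p = 0.129, and 0.75 without the high-fat arrays). Myog read 3748, 2827, 1409.6 and 2648.5 in soleus, against 2069, 1203.5, 1448 and 1112 in gastrocnemius (log2 0.82 ± 0.44, adjusted p = 0.275). Its lowest soleus array was replicate 3, which has high fat markers, and without the high-fat arrays Myog was called (1.10, adjusted p = 0.0461). Myf6, Mef2c and Des differed between the muscles by -0.51 to -0.07 over both states, and none passed. For Mef2c in exercised rats the arrays did not overlap by the first probe set (13614 to 15565 in soleus, against 16745 to 24064 in gastrocnemius) but did by the other, and the call was made only with the 2 groups fitted alone (adjusted p = 0.0233).

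**Figure D4:**
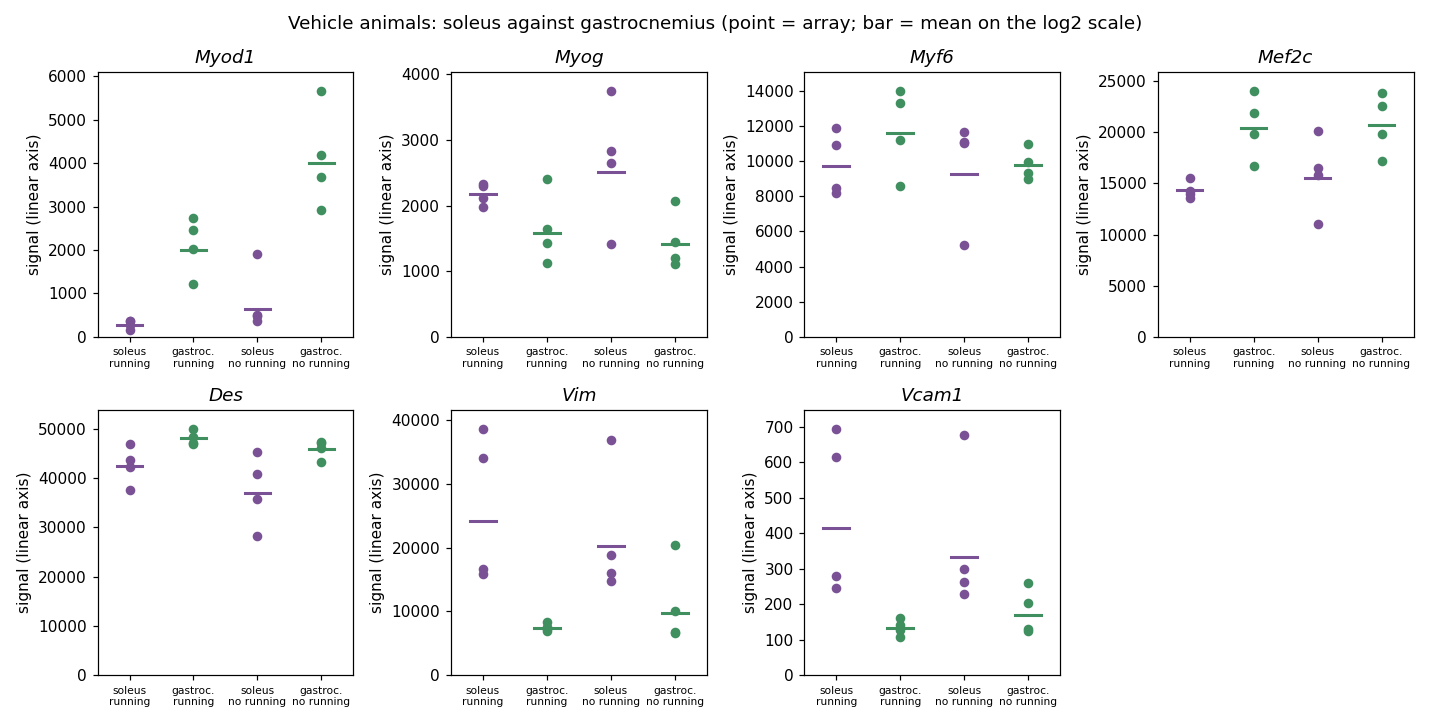
Signal of the 7 measured genes in vehicle rats (linear vertical axes from 0), soleus left of gastrocnemius, in running and not running animals, with 1 point per array and bars at the mean on the log2 scale. Myod1 is lower in every soleus array than in every gastrocnemius array of the same state, while Vim and Vcam1 are higher in soleus of running rats.

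Across all 12 groups the genes differed in what ordered them. Myod1 was ordered by muscle, with all 8 gastrocnemius group means (10.62 to 11.97 on the log2 scale) above all 4 soleus means (8.16 to 9.43), and the break fell between the unexercised high-dose groups of the 2 muscles, whose arrays do not overlap. Myog was highest in gastrocnemius at 1.0 mg/kg/day (11.94 unexercised and 11.48 exercised), followed by the 4 soleus groups (11.09 to 11.30) and then the 6 other gastrocnemius groups (10.12 to 10.75). Only the step from exercised vehicle soleus to unexercised gastrocnemius at 0.5 mg/kg/day separated its neighbours. Mef2c was lowest in gastrocnemius at 1.0 mg/kg/day, at 11.94 ± 1.18 (SD) exercised and 13.13 ± 1.05 unexercised, with the other 10 groups between 13.80 and 14.35. Myf6 was also lowest in exercised gastrocnemius at 1.0 mg/kg/day (12.06 ± 1.08), but highest in the unexercised group of the same dose (13.74 ± 0.32).

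Vcam1 ran from 7.18 ± 0.23 in exercised vehicle gastrocnemius to 10.84 ± 0.69 in exercised gastrocnemius at 1.0 mg/kg/day, with all 4 soleus groups between 8.43 and 9.61. Vim ran from 12.79 ± 0.21 to 15.24 ± 0.21, with both high-dose gastrocnemius groups above the 4 soleus groups (14.21 to 14.57) and those above the 6 other gastrocnemius groups. Des spanned the least, from 14.83 ± 0.31 in exercised gastrocnemius at 1.0 mg/kg/day to 15.55 ± 0.04 in exercised vehicle gastrocnemius. For these 3 genes and for Mef2c and Myf6, no 2 neighbouring groups in the order were free of overlap between their arrays.

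Over the 12 group means, which share arrays, normalization and the drug effect, the 7 genes were related as follows, given as Pearson's r without a test. Vcam1 and Vim ran closest together (0.92), Mef2c ran opposite to Vcam1 (-0.89) and Vim (-0.80), and Myf6 and Mef2c ran with Des (0.77 and 0.76). Myog ran with Vim (0.82), and Myod1 was at -0.54 with Vim, -0.44 with Myog, -0.43 with Vcam1 and between 0.025 and 0.20 with the other 3. Of 11683 other genes, the most alike were Hjv (0.997), Srl (0.995) and Klhl12 (0.99) for Mef2c, Lgals3 (0.99), Emp1 (0.987) and Cttn (0.982) for Vim, and Efemp2 (0.987), Eng (0.985) and Cd2ap (0.984) for Vcam1. For Myod1 they were Ttyh2 (0.956), Ccdc6 (0.953) and Glul (0.945), and for Myog Pafah1b1 (0.95), Txnrd1 (0.945) and Cct3 (0.943). For Des they were Cse1l (0.951), Traf3ip3 (0.947) and Rnf10 (0.947), and for Myf6, the least matched, Mrpl36 (0.902), Sars1 (0.893) and Mrps18b (0.891).

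The partners and inhibitors of the myogenic factors were read from lists in exercised gastrocnemius at 1.0 mg/kg/day, where the median over all probe sets was -0.01 and 23% of them were called higher and 20.4% lower. Of 5 tested partners and cofactors, Smarcd3, a subunit of the SWI/SNF remodelling complex that acts with Myod1, was lower by 2.31 ± 0.47 (mean signal 1819 against 7916 in vehicle). Kat2b, the acetyltransferase PCAF, was lower by 1.72 ± 0.32, and the E-protein Tcf12, which pairs with myogenic factors, was higher by 0.67 ± 0.21 (list median -0.27). Of 10 tested inhibitors 3 were higher and none lower (median 0.24): Id3 by 1.86 ± 0.41 and Id2 by 1.70 ± 0.50, which sequester E-proteins, and Mdfi, the inhibitor of MyoD family proteins, by 1.11 ± 0.43. Of 6 MEF2 relatives and regulators 3 were lower and none higher (median -0.81), namely Mef2a and Mef2d (both by 0.94) and the histone deacetylase Hdac4 (by 0.69). Of 3 genes upstream of the myogenic factors, Eya1 and Six4 were lower by 2.26 ± 0.47 and 2.12 ± 0.45. Adjusted p for these genes ran from 0.000182 to 0.0365. The calls of Mdfi, Hdac4 and Tcf12 were lost without 1 array or another.

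Satellite cell surface genes moved both ways in the same comparison, with 3 higher and 2 lower of 14 tested (median 0.42). Chodl, a membrane lectin, was lower by 2.18 ± 0.56, Itga7, the laminin-binding integrin of muscle cells, was higher by 1.79 ± 0.44, and Calcr, the calcitonin receptor carried by quiescent satellite cells, was lower by 1.50 ± 0.55, from low signals (52.1 against 156 in vehicle). Of 12 fusion and differentiation genes 2 were higher and 2 lower (median 0.91), among them Mymk, the fusion protein myomaker (higher by 1.72 ± 0.50), the growth factor Igf2 (lower by 1.42 ± 0.45) and the cell-cycle inhibitor Cdkn1c (lower by 1.42 ± 0.30). Calcr and Igf2 also lost their calls without single arrays.

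Among 10 other filament and lamina genes, counted by 1 probe set each, 3 were higher and 3 lower (median -0.45). The nuclear lamins Lmnb1 (2.52 ± 0.31) and Lmna (1.95 ± 0.29) were higher, and Synm, which encodes the filament protein synemin that binds desmin, was lower by 2.39 ± 0.40. The 2 probe sets of Sync (syncoilin) were called in opposite directions, at -1.56 ± 0.46 (the one counted) and 0.61 ± 0.20, so that this gene has no single direction. Of 6 tested genes of VCAM1 binding and leukocyte adhesion 3 were higher and none lower (median 1.05): Icam1 (3.09 ± 0.54), Selp, which encodes P-selectin (2.02 ± 0.59), and Itgb1, the β1 chain of the VCAM1 receptor (0.74 ± 0.19). Of 7 growth factors 2 were higher and 2 lower (median -0.02). Mstn, the brake on muscle growth, was lower by 4.20 ± 0.84, with a mean signal of 11.7, below the offset of 12.4, against 436.5 in vehicle. Tgfb1 and Igf1 were higher by 3.37 ± 0.51 and 2.47 ± 0.60.

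Without running, 1.0 mg/kg/day called 9.5% of all gastrocnemius probe sets (5.7% higher), and the lists gave calls for 1 of 10 inhibitors, 1 of 14 surface genes, 1 of 12 fusion genes, 2 of 10 filament and lamina genes, 2 of 6 adhesion genes and none in the other 4 lists. All 7 were higher, and the medians of these 5 lists ran from 0.17 (surface genes) to 1.08 (adhesion genes), against 0.03 over all probe sets. Icam1 (1.98 ± 0.58), Itgb7, an integrin chain that pairs with α4 (1.94 ± 0.53), Id2 (1.83 ± 0.54), Cdkn1a, a cell-cycle inhibitor of differentiating myoblasts (1.46 ± 0.46), Lmna (1.34 ± 0.31), Lmnb1 (1.26 ± 0.33) and Sdc4, a syndecan of satellite cells (1.15 ± 0.35), had adjusted p from 0.0154 to 0.0441. Each lost its call without replicate 1 or replicate 2 of the treated group, and in a fit of the 2 groups alone.

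Several list genes also differed between the muscles in their drug effect in exercised rats (soleus effect minus gastrocnemius effect). The filament and lamina list held 3 genes called upward and 3 downward of 10 (median 0.29, against -0.04 over all probe sets), led by Synm at 2.53 ± 0.51, Lmnb1 at -2.37 ± 0.39 and Lmna at -2.08 ± 0.36. Its upward calls included Sync, whose probe sets again disagreed (1.71 ± 0.58 and -0.71 ± 0.27). In this comparison 11.6% of all probe sets were called upward and 13.7% downward. Smarcd3 (2.10 ± 0.59), Kat2b (1.66 ± 0.41), Six4 (2.26 ± 0.60) and Eya1 (1.97 ± 0.62) ran upward, and Id2 (-2.14 ± 0.73), Id3 (-1.77 ± 0.56) and Mymk (-2.33 ± 0.65) ran downward. Adjusted p for these 10 genes, Sync not counted, ran from 0.000222 to 0.0295.

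**Figure D5:**
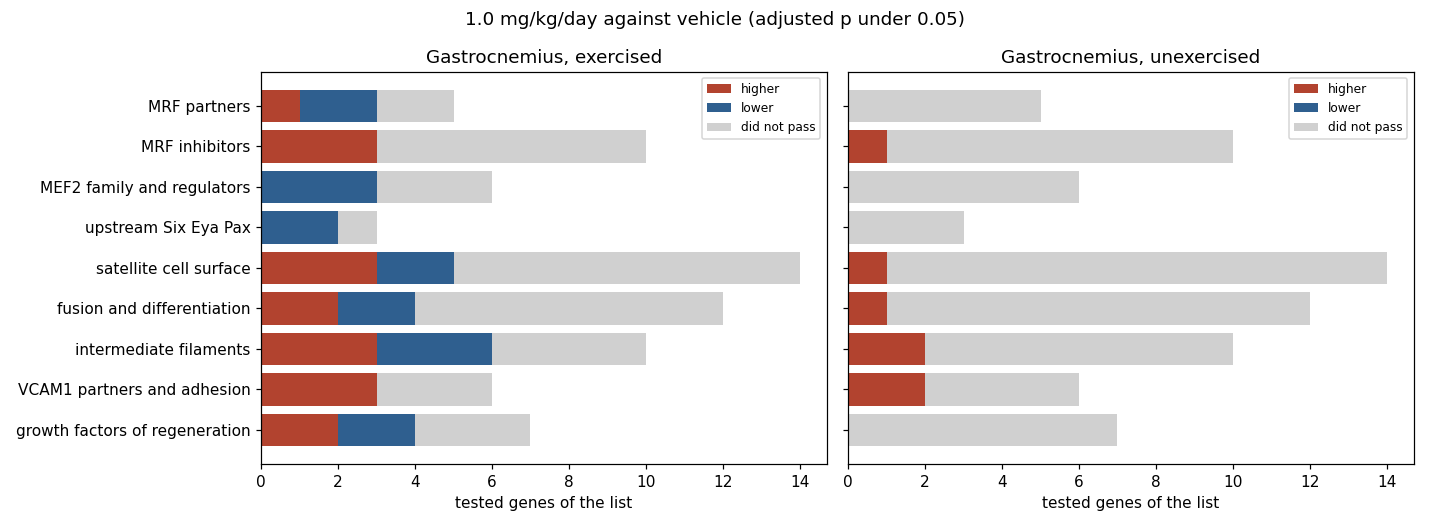
Number of tested genes of 9 pathway lists (horizontal axis) that were higher, lower or did not pass at 1.0 mg/kg/day against vehicle, in exercised (left) and unexercised (right) gastrocnemius. MEF2 relatives and the genes upstream of the myogenic factors were called only as lower in exercised muscle, and the adhesion and inhibitor lists only as higher.

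Between the muscles of vehicle rats, 3 genes of the fusion and differentiation list, Myh3, Sln and Tnnt2, were higher in soleus in both states. In exercised rats Myh3, the embryonic myosin heavy chain, averaged 6844 in soleus, against 212 in gastrocnemius (log2 5.03 ± 0.89, adjusted p = 0.000232). Sln (sarcolipin, an inhibitor of the calcium pump) was higher in soleus by 4.46 ± 1.03 and Tnnt2, the cardiac and embryonic troponin T, by 2.26 ± 0.75. The same 3 genes were called in unexercised rats, at 4.13 ± 0.89, 3.96 ± 1.03 and 2.48 ± 0.75. Of the inhibitors Id3, Id1 and Hes1 were higher in soleus of exercised rats (1.51, 1.29 and 1.17), and none of the 10 tested inhibitors passed in unexercised rats. The fusion list held 5 of 12 genes called upward in exercised and 3 of 12 in unexercised rats (medians -0.12 and 0.23). The inhibitor list held 3 of 10 in exercised rats (median 0.78). Over all probe sets the medians were 0.05 in exercised and 0.06 in unexercised rats, and 6.33% and 3.26% were called upward. Tcf12, Itga7, Sdc4, Nes and Lmna were higher in soleus in both states, by 0.60 to 1.58. Mstn was lower by 3.15 ± 0.81 in soleus of exercised rats, with a mean signal of 38.6 against 436.5 in gastrocnemius.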

How the data were processed

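Total RNA of 45 muscle samples was extracted with an RNeasy kit and about 4 µg (gastrocnemius) or 3 µg (soleus) was labelled for Affymetrix arrays, per the labels' protocols, so muscle and RNA input cannot be told apart. The deposited values are linear signal intensity made by the authors with MAS5, per the submitters' processing notes, with no version or target level given there. The number of arrays, not a read depth, limits the precision. Intervals are 95% intervals of limma's moderated fit.

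Of 31099 probe sets 57 controls were left out; the platform annotation named 1 gene for 20826 of the other 31042, several for 436 and none for 9780. Values were taken as log2(intensity + 12.4), the offset being the 10th percentile of all values, which understates changes of low signals. The 21729 probe sets with a mean of at least 6.03 on this scale were tested with limma 3.58.1 (R 4.3.3; moderated with an intensity trend) in 16 comparisons, each adjusted by the Benjamini-Hochberg method. Gastrocnemius comparisons were fitted on 30 arrays, soleus comparisons on 15 and muscle comparisons on 45. A gene with several probe sets was counted by the tested one with the highest mean.

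The members and gene lists were chosen with earlier results of these data known. Of each list the text names at most the 3 called genes with the widest change per comparison and any whose probe sets disagree. Between the muscles of vehicle rats, genes of the surface and filament lists are named above only where called in both states. Cdh15 (lower in soleus) and Chodl (higher in soleus) were called only in unexercised rats. Sync (lower in soleus) and Cryab (higher in soleus) were called only in exercised rats. For likeness, the 3 genes with the highest Pearson's r are named. The fat and myelin lists and the fits without the 3 high-fat arrays (1 in gastrocnemius fits, 2 in soleus fits) were chosen after seeing the data. Alternatives were 2 other offsets, no filter, quantile and median scaling, a mean over probe sets, only the groups compared, a replicate block and leaving out each replicate. On simulated data for the exercised gastrocnemius at 1.0 mg/kg/day (21729 probe sets), 38 of 50 changes of 2 and 35 of 50 changes of -2 on the log2 scale were called. Of 50 changes of 1 only 15 were called, of 50 changes of 3 there were 44, and 12 unchanged probe sets were called falsely. The simulation changed a far smaller share of probe sets than the 43.4% called in the data. These shares are therefore not the sensitivity of the real comparison. No 2 arrays held identical values.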

Additional observations from a re-analysis of the deposited data

Results flagged for a closer look

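In 8 of 72 groups of 4 arrays, over the 8 probe sets, the highest or lowest array lay further from its nearest neighbour than Dixon's criterion allows, where chance gives about 1 in 20 groups. All values are log2(intensity + 12.4). Replicate 3 of unexercised gastrocnemius at 0.1 mg/kg/day was low for Mef2c by both probe sets, at 12.38 (others 14.20 to 14.39) and 12.12 (others 13.92 to 14.24), and for Myf6 at 10.08 (others 12.85 to 13.33). Replicate 1 of exercised soleus at 1.0 mg/kg/day was low for Mef2c by both probe sets, at 12.94 (others 14.04 to 14.11) and 12.85 (others 14.13 to 14.35). Replicate 3 of unexercised vehicle soleus was low for Myf6 at 12.35 (others 13.43 to 13.51). These are the 3 arrays with fat marker means of 13.12, 12.90 and 12.54, and the part of fat in the values was not tested. In the other direction, Mef2c by its first probe set was high in replicate 3 of exercised gastrocnemius at 0.1 mg/kg/day (14.73, others 14.19 to 14.27), and by its other probe set in replicate 1 of unexercised gastrocnemius at 0.5 mg/kg/day (14.66, others 13.82 to 13.92).

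The effect of 1.0 mg/kg/day in exercised rats differed between soleus and gastrocnemius (soleus effect minus gastrocnemius effect, log2) for Mef2c at 2.37 and, by its other probe set, 1.84, for Vcam1 at -2.79 and for Vim at -2.48, each below an adjusted p of 0.05 by limma.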

How the results depend on the processing

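Of 260 alternative values of the 14 called member results, 235 stayed past the threshold and 25 did not, and 0 changed sign; of 1763 alternative values of the 98 that were not called, 13 passed the threshold and 67 changed sign. For exercised gastrocnemius at 1.0 mg/kg/day the number of called genes was 5, and 3 to 5 when single replicates were left out. For unexercised gastrocnemius it was 2, and 0 with only the groups compared, 5 without the high-fat array of that fit, and 0 to 4 when single replicates were left out; the probe sets called were 2065, 0, 4113 and 2 to 5823 under the same settings. Without the 3 high-fat arrays it was 5 in place of 3 for the difference between muscles in exercised rats and 2 in place of 1 for soleus against gastrocnemius of unexercised vehicle rats. For the difference between muscles in unexercised rats it was 0, and 0 to 4 when single replicates were left out, with 2 probe sets called, 0 to 16 under other settings and 0 to 3558 without single replicates. For soleus against gastrocnemius in vehicle rats, 745 to 1320 probe sets were called without single replicates in place of 1526 (unexercised), and 1752 to 3255 in place of 2861 (exercised), with up to 4522 under other settings. In the replicate numbers, no comparison had every pair of same-numbered arrays correlated above 0.1 (lowest -0.29, highest 0.41), so the numbers were not taken to pair the samples, and whether soleus and gastrocnemius came from the same animals is not stated; with the replicate block, exercised gastrocnemius at 1.0 mg/kg/day had 4 called genes, Des being lost (adjusted p = 0.0521), Myod1 at 1.0 mg/kg/day with against without exercise turned to -0.0253, and 9369 and 1541 probe sets were called in exercised and unexercised gastrocnemius. Median centring moved the median of all probe sets at 1.0 mg/kg/day in exercised gastrocnemius to -0.107, against -0.006.

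The sign changes were all in results that were not called. With quantile normalization Des turned to 0.14 at 1.0 mg/kg/day in unexercised gastrocnemius, to -0.0938 and -0.0506 in the differences between muscles of unexercised and exercised rats, and to 0.0039 in soleus against gastrocnemius of exercised vehicle rats; Myf6 turned to 0.0194 in the unexercised comparison of muscles. In exercised soleus at 1.0 mg/kg/day, Myog turned to -0.0209, Vim to 0.0707 and Mef2c to 0.0566 with quantile normalization, and Mef2c to 0.0186 with median centring. With the mean over probe sets Mef2c turned to -0.0426 at 0.1 mg/kg/day in exercised gastrocnemius and to 0.0338 for exercise in vehicle gastrocnemius. Without the high-fat arrays Des, Myf6, Myod1 and Vim turned to -0.0643, -0.22, -0.0403 and 0.20 in unexercised soleus at 1.0 mg/kg/day, Mef2c to 0.27 in exercised soleus, Myog, Vcam1 and Vim to 0.29, -0.0801 and -0.36 in unexercised gastrocnemius at 0.1 mg/kg/day, and Myf6 to -0.21 for exercise in vehicle soleus and 0.20 for soleus against gastrocnemius in unexercised vehicle rats. The cause was not tested.

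Without single replicates the ranges that cross 0 were as follows. At 0.1 mg/kg/day in exercised gastrocnemius they were -0.0924 to 0.11 for Mef2c, -0.23 to 0.26 for Myod1 and -0.37 to 0.0019 for Myog, and in unexercised gastrocnemius -0.70 to 0.29 for Myog, -0.0801 to 0.83 for Vcam1 and -0.36 to 0.70 for Vim. At 0.5 mg/kg/day they were -0.29 to 0.10 for Myog in exercised and -0.40 to 0.0038 for Vcam1 and -0.34 to 0.20 for Vim in unexercised gastrocnemius. For exercise they were -0.11 to 0.079 for Mef2c and -0.0331 to 0.35 for Myog in vehicle gastrocnemius, -0.28 to 0.0141 for Mef2c and -0.21 to 0.18 for Myf6 in vehicle soleus, and -0.16 to 0.34 for Myod1, -1.15 to 0.0886 for Myog and -0.0282 to 0.53 for Vim in gastrocnemius at 1.0 mg/kg/day. For 1.0 mg/kg/day in soleus they were, unexercised, -0.0643 to 0.16 for Des, -0.24 to 0.0516 for Mef2c, -0.22 to 0.17 for Myf6, -0.20 to 0.59 for Myod1, -0.41 to 0.0528 for Myog and -0.32 to 0.20 for Vim, and, exercised, -0.12 to 0.27 for Mef2c, -0.15 to 0.34 for Myog and -0.34 to 0.12 for Vim. For soleus against gastrocnemius in unexercised vehicle rats it was -0.18 to 0.20 for Myf6.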
